A study of Mus musculus with 9 samples.

Results

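The comparison set 3 arrays of Pax5ko cells against 3 arrays of EBFko cells, 6 of the 9 arrays of the series, chosen by their titles. Both are mouse cell lines, labelled as deficient in Pax5 and in EBF, and both grew in standard culture medium with recombinant human Flt3 ligand and recombinant mouse IL-7, each at 10 ng/ml. The other 3 arrays come from a RAG2-deficient line, RAG2ko, grown with IL-7 at 10 ng/ml and no stated Flt3 ligand, so Pax5ko against EBFko is the comparison in which the medium was the same. The labels call EBFko cells specified to the lymphoid lineage and Pax5ko cells specified to the B lineage, and report no treatment. The structure of the deleted alleles, a feeder layer and whether the 3 arrays of a line are separate cultures are not given. The p-values are therefore set against the spread among these arrays alone, which may be technical.

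EBF1 and PAX5 are transcription factors that act in sequence in early B cell development. EBF1, together with E2A and FOXO1, switches on the first genes of the B lineage, among them the surrogate light chain and the signalling chains of the pre-B cell receptor. PAX5 acts after it, completes the B lineage programme and shuts down genes of other lineages. Cells without EBF1 and cells without PAX5 can both be kept growing with IL-7, and both keep a capacity for other blood lineages.

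Total RNA was hybridised to Affymetrix arrays, on which a gene is read by 1 or more probe sets. Values below are log2 signals after quantile normalization over the 9 arrays, given in the order replicate 1, 2, 3, and differences are Pax5ko minus EBFko on the log2 scale ± SE from a limma fit. A call is an adjusted p under 0.05 over all 40928 probe sets tested. Between 41.0% and 47.3% of the probe sets of an array lay under a signal of 64, a log2 value of 6, where the arrays carry little information. A difference that reaches into that range is followed by the difference after raising every signal under 64 to 64, called floored. The number of arrays limits the precision of every value.

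Arrays of 1 line were more alike than arrays of the pair of lines: over the tested probe sets, which are not independent of each other, pairs of EBFko arrays correlated at 0.904 to 0.923, pairs of Pax5ko arrays at 0.911 to 0.921, and mixed pairs at 0.864 to 0.891. The deleted genes did not check the labels. Ebf1 was bright on the EBFko arrays in all of its 3 probe sets, and 1 of them (1416302_at) was lower in Pax5ko, at 9.74, 9.50 and 9.51 against 10.79, 11.22 and 10.99 in EBFko (-1.42 ± 0.21, adjusted p = 0.0116). The Pax5 probe set was dim and scattered in both lines, at 3.06, 6.32 and 6.03 in EBFko and 5.62, 2.64 and 3.57 in Pax5ko. Whether the probes lie inside the deleted exons is not given in the sources used here.

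The lines also differed in sex-linked transcripts. Xist, the RNA of the inactive X chromosome, read 13.96, 14.23 and 13.99 in EBFko and 5.92, 5.58 and 5.56 in Pax5ko (-8.38 ± 0.23, floored -8.06, adjusted p = 1.14e-05). Kdm5d, a gene of the Y chromosome, read 5.29, 3.17 and 6.27 in EBFko and 9.46, 8.97 and 9.50 in Pax5ko (4.39 ± 0.84, floored 3.22, adjusted p = 0.0280). Its call was lost in 5 of the 9 fits that each left out 1 array. Sex and genotype therefore cannot be told apart in this comparison.

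Markers of the B lineage set the lines apart, while markers of other cell types ranged from dim to bright. The T cell marker Lck and stromal collagens were bright in both lines, and Cd3e, Ncr1 and Klrb1c were dim in both. The mean of 7 B lineage markers was 4.90, 5.48 and 6.34 in EBFko and 9.80, 9.57 and 9.42 in Pax5ko. The 22 stromal genes tested averaged 9.61, 8.43 and 9.72 in EBFko and 9.41, 8.15 and 9.97 in Pax5ko. Of these genes 0 were higher and 1 was lower (4.55%, against 3.73% over all genes). The fall was Pdgfrb (-3.01 ± 0.55, floored -0.81), whose call was lost in 5 of the 9 fits that left out 1 array and once floored. Stromal transcripts such as Col1a2 (10.54 to 12.77 in EBFko, 11.04 to 12.98 in Pax5ko) were thus bright in both lines, and the list was lowest on replicate 2 of each line. Among myeloid markers, Mpo, a granule enzyme of neutrophils, read 10.19 on EBFko replicate 3 but 6.29 and 6.13 on the other EBFko arrays and at most 6.71 in Pax5ko. The share of different cells in each culture was not measured, and in RNA from whole cultures fewer cells of a type and less RNA per cell cannot be told apart.

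Across all probe sets, 1080 were higher in Pax5ko (2.64% of those tested) and 1055 were lower (2.58%), in a test whose median difference over all probe sets was -0.01. The arrays of the lines did not overlap for any of the 2135 called probe sets, as for 29.0% of all tested. At least a 2-fold change was seen in 888 of the rises and 851 of the falls, and 761 and 716 of these called sets stayed above 2-fold when signals under 64 were raised to 64. Floored changes of 16-fold or more numbered 60 among the rises and 38 among the falls. In 382 of the rises the EBFko mean was under 6, and in 313 of the falls the Pax5ko mean was. For these the size of the change is not well measured. A gene symbol could be given to 1125 of the called probe sets, and 1010 have none, 556 of them higher and 454 lower. Counted once per named gene by the brightest probe set, 330 of 9375 genes were higher (3.52%) and 350 lower (3.73%).

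**Figure D1:**
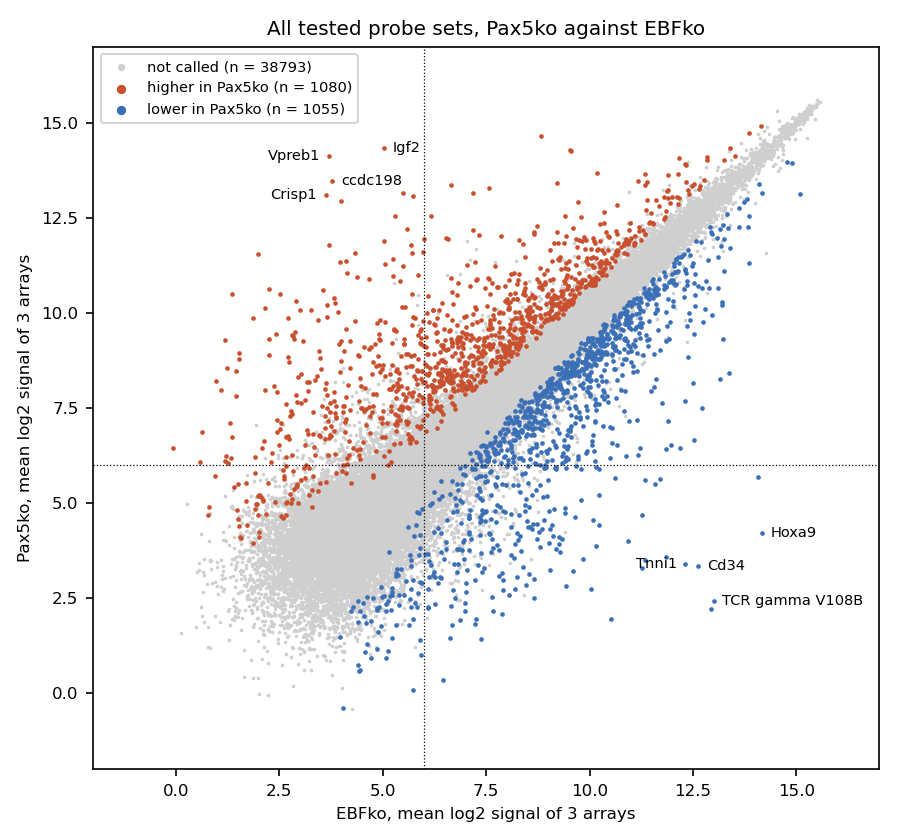
Mean log2 signal of the 3 EBFko arrays (x axis) against that of the 3 Pax5ko arrays (y axis) for the 40928 tested probe sets, with the 1080 called higher in red and the 1055 called lower in blue. The dotted lines mark a log2 signal of 6, and the named points, among the largest floored changes, run from background in 1 line to the bright end of the other.

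Some of the largest rises came from the pre-B cell receptor. Of 25 tested genes of this receptor and its signalling, 8 were higher (32%) and 5 lower (20%) in Pax5ko. Over all genes 3.52% were higher and 3.73% lower. The median difference of the 25 was 0.30, against -0.02 over all genes. The surrogate light chain and the signalling chains rose, while Cd72, Blnk, Fcrla, Lyn and Ptpn6 fell.

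Vpreb1, the variable-like part of the surrogate light chain, read 2.83, 2.20 and 6.06 in EBFko and 14.21, 14.21 and 13.96 in Pax5ko (10.43 ± 0.89, floored 8.11, adjusted p = 0.00114). Igll1, the constant-like partner also called lambda 5, read 6.42, 6.75 and 6.79 against 13.43, 13.43 and 13.28 (6.73 ± 0.16, adjusted p = 9.54e-06). In these probe sets both genes went from near background on every EBFko array to among the brightest signals of the Pax5ko arrays. A second Igll1 probe set (1420177_at) stayed dim, at 2.40, 5.52 and 4.60 against 6.04, 6.24 and 5.80. It did not pass the test (1.85 ± 0.70, floored 0.09, adjusted p = 0.216). Vpreb2, a close copy of Vpreb1, read 5.76, 5.70 and 5.76 against 13.19, 13.18 and 12.90 (7.35 ± 0.15, floored 7.09, adjusted p = 5.84e-06). The name of its probe set (1422416_s_at) says that it can match more than 1 transcript, so its signal and that of Vpreb1 may not be independent. Vpreb3, a further relative, rose less, from 6.27, 6.20 and 6.65 to 8.49, 8.31 and 8.44 (2.04 ± 0.22, adjusted p = 0.00333).

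The likeness of both genes extends into the sequence before their start sites. In RefSeq (GRCm38.p6), the 250 bases upstream of Vpreb1 (chr16:16869256-16869505, minus strand) and of Vpreb2 (chr16:17980315-17980564, plus strand) share an unbroken run of 91 bases. The upstream sequences are shown 5′ to 3′ with the shared run in capitals.
Vpreb1: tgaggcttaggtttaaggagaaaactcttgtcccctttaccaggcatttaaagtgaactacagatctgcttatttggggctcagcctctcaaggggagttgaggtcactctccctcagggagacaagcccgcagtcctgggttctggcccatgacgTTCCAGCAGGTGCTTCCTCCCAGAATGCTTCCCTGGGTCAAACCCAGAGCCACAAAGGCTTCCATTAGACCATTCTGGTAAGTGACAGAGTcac
Vpreb2: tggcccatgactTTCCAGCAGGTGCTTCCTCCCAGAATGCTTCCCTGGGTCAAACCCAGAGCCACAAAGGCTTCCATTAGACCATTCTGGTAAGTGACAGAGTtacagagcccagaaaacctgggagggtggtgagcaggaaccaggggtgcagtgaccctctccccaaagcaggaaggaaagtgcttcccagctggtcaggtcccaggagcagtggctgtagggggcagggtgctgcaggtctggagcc
The run begins 94 bases before the annotated start of Vpreb1 and 238 bases before that of Vpreb2, so the annotated starts are offset from each other.

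The receptor's signalling chains rose as well. Cd79b, which carries the signal of the receptor together with Cd79a, read 4.72, 5.30 and 6.72 in EBFko and 12.28, 12.14 and 12.20 in Pax5ko (6.62 ± 0.48, floored 5.97, adjusted p = 6.04e-04). Cd79a read 4.88, 5.08 and 5.83 against 9.54, 9.45 and 9.75 (4.32 ± 0.27, floored 3.58, adjusted p = 3.31e-04). The Pax5ko arrays were thus close to RAG2ko for Cd79b, whose RAG2ko mean was 12.5, and well under RAG2ko for Cd79a, whose RAG2ko mean was 13.4. The difference between the rises of both chains was not tested. Blk, a Src family kinase of B cells, read 5.95, 5.04 and 5.66 against 10.18, 10.20 and 10.12 (4.62 ± 0.26, floored 4.17, adjusted p = 1.99e-04), and Pik3ap1, an adaptor to PI3 kinase, rose by 1.61 ± 0.17. Both were named after their values were seen.

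The falls in the same group were Cd72 (-4.98 ± 0.41, floored -4.45), an inhibitory co-receptor, Blnk (-3.80 ± 0.49, floored -2.97), the adaptor that links the pre-B cell receptor to its downstream enzymes, Fcrla, Lyn and Ptpn6. Blnk read 8.56, 8.28 and 10.09 in EBFko and 5.47, 5.21 and 4.85 in Pax5ko, so every Pax5ko array lay under 64 in signal. Lyn, a Src family kinase, read 11.74, 11.55 and 11.55 against 10.28, 10.29 and 10.11 (-1.38 ± 0.15, adjusted p = 0.00341). The fall of Fcrla (-2.06 ± 0.41, floored -1.29) was lost in 7 of the 9 fits that left out 1 array, over which it ranged from -2.27 to -1.79. The immunoglobulin heavy chain Ighm was bright in both lines, at 13.09, 13.01 and 13.55 and at 13.05, 13.05 and 13.15, and did not pass the test (-0.13 ± 0.25).

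**Figure D2:**
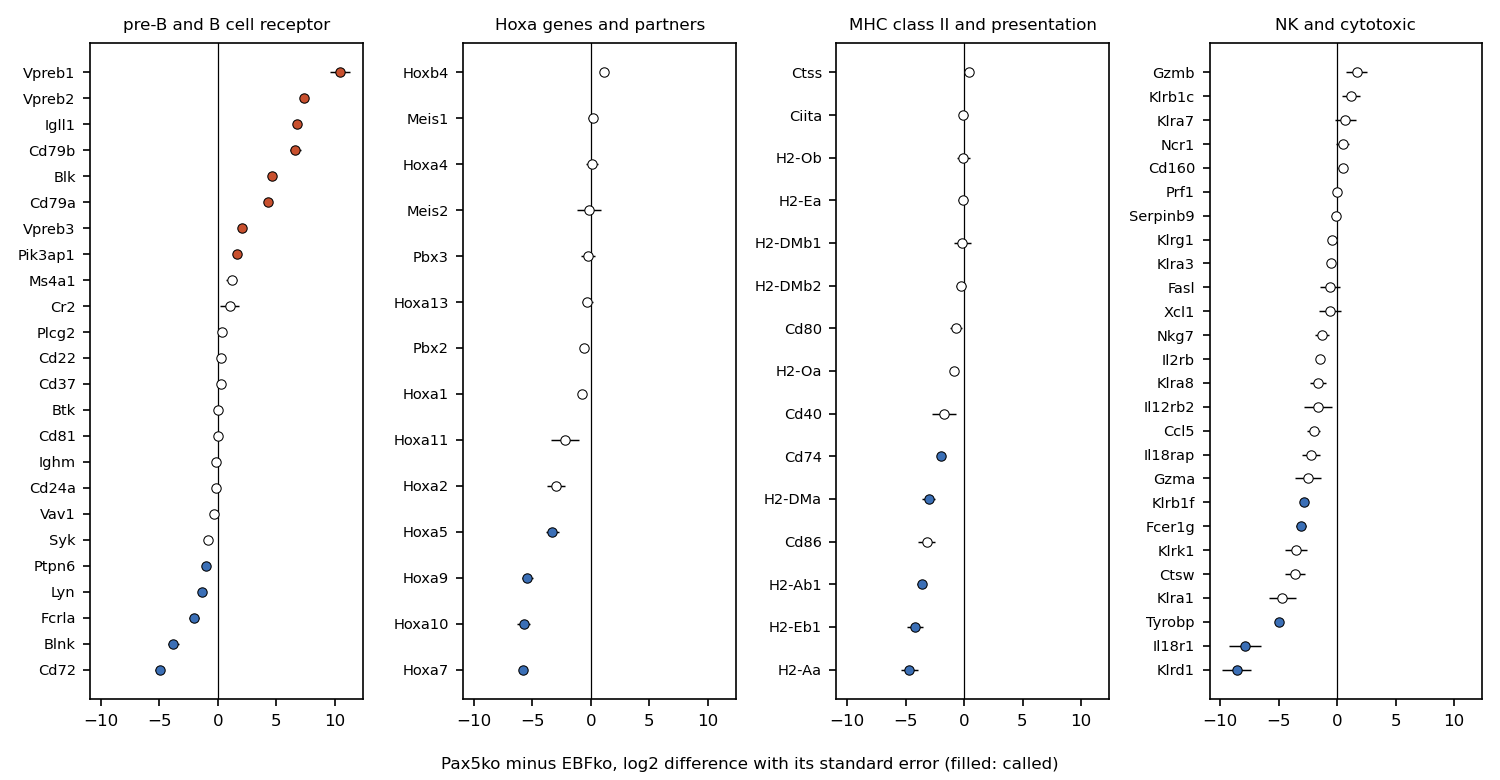
Log2 difference, Pax5ko minus EBFko, with its standard error (x axis) for the tested genes of 4 lists that are reported here (y axis); filled points were called, red higher and blue lower in Pax5ko. The pre-B cell receptor list has calls on both sides, while the calls among Hoxa, MHC class II and NK genes all lie below 0.

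Genes that the literature knows as EBF1 targets were the list with the highest share of rises. Of 21 tested, 10 were higher in Pax5ko (47.6%) and 1 was lower (4.76%), against 3.52% and 3.73% over all genes. Their median difference was 1.53. Between 9 and 11 were higher in the fits that left out 1 array. The 10 were Vpreb1, Vpreb2, Vpreb3, Igll1, Cd79a, Cd79b, Blk, Pou2af1, Foxo1 and Hes1, most of them also on the pre-B cell receptor list. Pou2af1, a coactivator of octamer-binding factors, read 3.27, 4.66 and 4.02 in EBFko and 12.97, 13.01 and 12.88 in Pax5ko (8.97 ± 0.33, floored 6.96, adjusted p = 3.44e-05). Foxo1, a transcription factor needed at the same stage as EBF1, rose in all of its 3 probe sets by 2.01 to 2.24, and the brightest read 7.39, 7.30 and 7.97 against 9.58, 9.73 and 9.39. The smallest of the rises, Hes1 (0.98 ± 0.19), was lost in 6 of the 9 fits that left out 1 array.

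Promoters of these genes were read for the core of the EBF1 recognition sequence, CCCNNGGG, which is the same on both strands. Of the 11 called genes of the list, 8 have an entry in the RefSeq table of promoters, and 2 of them hold the core within 250 bases upstream of the start, against 11.8% of all 32851 promoters. They are Foxo1 (chr3:52268087-52268336, plus strand), where it begins 91 bases before the start, and Igll1 (chr16:16863986-16864235, minus strand), where it begins 231 bases before. Both are shown 5′ to 3′ with the core in capitals.
Foxo1: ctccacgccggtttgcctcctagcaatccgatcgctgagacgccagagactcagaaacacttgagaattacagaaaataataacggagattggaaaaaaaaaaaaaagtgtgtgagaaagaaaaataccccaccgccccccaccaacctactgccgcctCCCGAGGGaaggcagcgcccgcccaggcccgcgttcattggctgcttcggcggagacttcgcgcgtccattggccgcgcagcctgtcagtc
Igll1: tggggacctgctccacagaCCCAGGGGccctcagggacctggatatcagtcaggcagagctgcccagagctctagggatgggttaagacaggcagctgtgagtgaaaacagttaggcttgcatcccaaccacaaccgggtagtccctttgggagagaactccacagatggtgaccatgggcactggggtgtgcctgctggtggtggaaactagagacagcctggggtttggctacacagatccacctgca
A match of these letters is a description of the sequence, and binding was not measured here.

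Other transcription factors of the B lineage were split. Of 33 tested, 4 were higher and 4 lower (12.1% each), against 3.52% and 3.73% over all genes. Their median difference was -0.09. Besides Pou2af1 and Foxo1, the rises were Erg and Bcl11a. Erg, an Ets factor of stem and progenitor cells, read 2.29, 1.81 and 2.67 in EBFko and 10.70, 10.78 and 10.41 in Pax5ko (8.37 ± 0.33, floored 4.63, adjusted p = 4.43e-05). Bcl11a, needed for early B cells, rose by 2.04 ± 0.30 from 8.48, 8.55 and 9.31. The falls were Bach2 (-2.61 ± 0.42), Irf8 (-1.65 ± 0.24), Klf2 (-1.49 ± 0.22) and Ikzf1 (-1.11 ± 0.14). Ikzf1, the gene of Ikaros, stayed bright in both lines, at 13.41, 13.34 and 13.32 against 12.16, 12.36 and 12.20. Bach2, a repressor of the plasma cell programme, lost its call in 4 of the 9 fits that left out 1 array, at -2.87 to -2.44. Tcf3, which encodes E2A, read 10.27, 10.51 and 10.27 against 10.27, 10.61 and 10.15 (-0.01 ± 0.29), and Spi1, Myb, Irf4 and Lef1 did not pass the test either, at -0.56, -0.11, 0.12 and 0.39.

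Of 17 tested genes of antigen receptor assembly, 2 were higher (11.8%) and 0 lower by limma, against 3.52% and 3.73% over all genes. At an unadjusted p under 0.05, 5 were higher and 2 lower. Dntt, the terminal transferase that adds nucleotides at the joints, rose in all of its 3 probe sets by 3.03 to 3.88, of which 1449757_x_at lost its call in 3 of the 9 fits that left out 1 array, and its brightest read 6.08, 6.52 and 6.72 in EBFko and 10.68, 9.77 and 10.31 in Pax5ko (3.82 ± 0.49, adjusted p = 0.00655). Xrcc5, which encodes the Ku80 subunit that binds broken DNA ends, rose by 2.14 ± 0.28 from 8.32, 8.69 and 7.72 to 10.54, 10.35 and 10.25. Rag1, a recombinase subunit, was higher in each Pax5ko array (10.66, 9.93 and 10.72) than in EBFko (8.22, 8.61 and 9.48) without passing the test (1.67 ± 0.83, adjusted p = 0.358). Rag2, its partner subunit, was lower in each Pax5ko array (7.86, 7.16 and 7.64) than in EBFko (9.16, 8.83 and 10.16), also without passing (-1.83 ± 0.89, adjusted p = 0.343). The spread in this test includes the RAG2ko arrays, whose SD was 1.78 for Rag1 and 1.92 for Rag2. In EBFko and Pax5ko the SDs of both genes were 0.35 to 0.69. In the limma fits that left out 1 array, the adjusted p was 0.071 to 0.589 for Rag1 and 0.047 to 0.582 for Rag2.

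Probe sets of the T cell receptor loci, which are named only by their descriptions, held opposite changes. Of 28 tested, 6 were higher and 1 was lower in Pax5ko, while 11 had a group mean above 8. Over all probe sets 2.64% were higher and 2.58% lower. The 6 rises all carry the description T-cell receptor beta, variable 13, shared by 12 tested probe sets, and lay between 5.44 and 6.88. The widest of them (1425226_x_at) read 4.55, 6.39 and 4.16 in EBFko, 11.97, 11.87 and 11.88 in Pax5ko and 4.03 on average in RAG2ko (6.88 ± 0.52, floored 5.78, adjusted p = 7.34e-04). These probe sets share 1 description, so they are not counted as independent genes, and the other 6 with that description did not pass the test, at -2.82 to 2.02. The fall was a probe set described as the T cell receptor gamma chain V region V108B (1427608_a_at), at 12.77, 12.97 and 13.29 in EBFko and 1.92, 3.37 and 1.98 in Pax5ko (-10.59 ± 0.39, floored -7.01, adjusted p = 3.44e-05). A rearranged T cell receptor delta chain described as clone RAD11 (1427655_a_at) was bright in both lines, at 12.20, 12.48 and 12.74 and at 12.07, 12.04 and 12.06, and near background in RAG2ko, at 2.81 on average. It did not pass the test (-0.42 ± 0.33, adjusted p = 0.593). None of 42 immunoglobulin probe sets outside lambda 5 was called by limma (3 higher and 2 lower at an unadjusted p under 0.05), and 2 of them had a group mean above 8. Cd3e and Cd3g, chains of the T cell receptor complex, were under 64 in signal on all 6 arrays, and Lck, a kinase of T cells, read 11.98, 12.24 and 12.22 against 11.16, 11.16 and 11.03 (-1.03 ± 0.19).

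The Hoxa cluster held some of the largest falls. Of 15 tested Hoxa genes and partners, 4 were lower (26.7%) and 0 higher by limma, against 3.73% and 3.52% over all genes. In the fits that left out 1 array, 3 to 5 were lower. Hoxa9, a homeobox factor of stem cells and early progenitors, read 14.16, 14.24 and 14.11 in EBFko in 1 probe set (1455626_at) and 5.76, 2.48 and 4.40 in Pax5ko (-9.95 ± 0.93, floored -8.17, adjusted p = 0.00167). Among the named genes this was the largest floored fall. A second Hoxa9 probe set (1421579_at) fell by 5.43 ± 0.48. Hoxa10 read 11.07, 11.37 and 11.62 against 5.45, 5.74 and 5.64 (-5.74 ± 0.57, floored -5.35), and Hoxa7 read 10.22, 10.40 and 10.05 against 4.56, 4.02 and 4.66 (-5.81 ± 0.29, floored -4.22). Hoxa5 fell by 5.44 ± 0.73 in 1 probe set, from 11.81, 12.11 and 12.00, and by 3.30 ± 0.57 in another, whose call was lost in 3 of the 9 fits that left out 1 array. Hoxa9 and Hoxa10 together with Hoxa7 and Hoxa5 thus went from bright on every EBFko array to near or under 64 in signal in Pax5ko. Their cofactor Meis1 was dim in both lines and did not pass the test (0.14).

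Genes of stem cells and multipotent progenitors moved both ways. Of 28 tested, 3 were higher (10.7%) and 5 lower (17.9%), against 3.52% and 3.73% over all genes. Their median difference was 0.20. Cd34, a surface sialomucin of progenitors, read 12.20, 12.23 and 13.47 in EBFko and 4.79, 2.76 and 2.46 in Pax5ko (-9.30 ± 0.67, floored -6.63, adjusted p = 6.03e-04). Gfi1b, a transcriptional repressor that acts in the erythroid and megakaryocyte lineages, fell by 2.70 ± 0.42. Its call was lost in 2 of the 9 fits that left out 1 array. Satb1, a chromatin organiser, fell by 2.16 ± 0.28. Ly6a, the antigen Sca-1, and Lmo2, a partner of Tal1, were among the rises, at 1.06 ± 0.23 and 1.15 ± 0.22, and lost their calls in 7 and 6 of the 9 fits that left out 1 array.

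Among 34 receptors for cytokines, 3 were higher and 3 lower (8.82% each), against 3.52% and 3.73% over all genes. Flt3, the receptor for the Flt3 ligand in the medium, read 11.93, 11.80 and 12.09 in EBFko and 9.72, 9.69 and 9.88 in Pax5ko (-2.18 ± 0.30, adjusted p = 0.00828). The receptor for the other supplement, Il7r, was at 12.44, 12.68 and 12.34 against 12.37, 12.21 and 12.22 and did not pass (-0.22 ± 0.35, adjusted p = 0.824). Il2ra, the alpha chain of the IL-2 receptor and a marker of pre-B cells and of early T cells, rose from 5.24, 4.03 and 5.43 to 9.49, 9.44 and 9.41 (4.55 ± 0.50, floored 3.45, adjusted p = 0.00328). The smaller changes were the rises of Il10ra (1.30 ± 0.18) and Il6st (1.0 ± 0.21) and the fall of Ifnar2 (-0.81 ± 0.16), of which Il6st and Ifnar2 each lost their call in 7 of the 9 fits that left out 1 array. Il18r1, an IL-18 receptor chain of NK and innate lymphoid cells, fell by 7.84 ± 1.37 (floored -5.33). EBFko replicate 3, at 9.25, was well below the other EBFko arrays for Il18r1, at 12.29 and 12.46, and the call was lost in 4 of the 9 fits that left out 1 array, at -8.90 to -7.20.

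Every call in the lists of NK, myeloid, dendritic and MHC class II genes was a fall in Pax5ko, although Mrc1 and the class I gene H2-D1, which are on none of these lists, rose. Over all genes 3.73% were lower and 3.52% higher. Of 26 NK and cytotoxic genes, 5 were lower (19.2%) and 0 higher by limma, and their median difference was -1.53 against -0.02 over all genes. Of 30 myeloid genes 5 were lower (16.7%) and 0 higher, and of 14 dendritic genes 3 (21.4%) and 0. Of 15 genes of MHC class II presentation, 5 were lower (33.3%) and 0 higher. In the fits that left out 1 array, the lower counts ranged from 4 to 8, 3 to 7, 2 to 4 and 2 to 6 in that order. At an unadjusted p under 0.05, 3 myeloid genes were higher, against 0 of the NK, dendritic and class II genes.

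Tyrobp and Fcer1g, the adaptors through which activating NK and myeloid receptors signal, both fell. Tyrobp read 13.21, 13.37 and 13.55 in EBFko and 8.81, 8.49 and 7.96 in Pax5ko (-4.95 ± 0.28, adjusted p = 1.99e-04), and Fcer1g fell by 3.07 ± 0.43 from 12.52, 12.57 and 12.47. Klrd1, the CD94 chain of NK receptors, read 10.38, 10.48 and 10.71 against -0.21, 1.02 and 5.0 (-8.59 ± 1.25, floored -4.52), and Klrb1f fell by 2.80 ± 0.21. Ncr1 and Klrb1c, which define mature NK cells, were under 64 in signal on all 6 arrays, and Gzma was at most 7.28. So the NK genes that were bright in EBFko were receptors and adaptors and not these defining markers.

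The myeloid falls were led by the Fc gamma receptors. A probe set assigned to Fcgr3 by accession, though described as the IIb receptor, read 12.15, 12.35 and 12.08 in EBFko and 6.27, 6.66 and 6.43 in Pax5ko (-5.74 ± 0.22, adjusted p = 4.21e-05). The inhibitory Fcgr2b read 9.79, 9.79 and 11.12 against 5.81, 6.02 and 5.87 (-4.33 ± 0.36, floored -4.23). Probe sets of both genes may share transcripts, so their signals are not fully separate. Adgre1, the macrophage antigen F4/80, fell by 4.04 ± 0.48 (floored -3.96), and Cyba, a subunit of the phagocyte oxidase, by 1.48 ± 0.17. The falls of Itgax and Clec4d, at -4.29 and -3.39 (floored -2.73 and -2.10, where Clec4d lost its call), were lost in 7 and 5 of the 9 fits that left out 1 array, and both were highest on EBFko replicate 3, the array with high Mpo. The part of myeloid cells on that array in these falls was not tested. Cybb, the other oxidase subunit, was higher on every Pax5ko array (10.92, 11.19 and 11.01 against 6.98, 6.97 and 6.64) and did not pass the test over all 9 arrays (4.18 ± 1.27, adjusted p = 0.127).

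Of the MHC class II genes, H2-Aa read 9.43, 9.24 and 9.54 in EBFko and 4.92, 4.99 and 4.29 in Pax5ko (-4.67 ± 0.74, floored -3.40, adjusted p = 0.0139). H2-Eb1 fell by 4.19 ± 0.70 (floored -2.57), H2-Ab1 by 3.61 ± 0.38 (floored -0.80), H2-DMa, which helps load peptide, by 3.03 ± 0.55, and Cd74, the invariant chain, by 2.01 ± 0.31. Except for H2-Ab1, each of these calls was lost in 2 to 5 of the 9 fits that left out 1 array, with adjusted p values of up to 0.0850. H2-DMa was highest on EBFko replicate 3, at 10.58 against 8.82 and 8.96, and Cd74 at 11.62 against 10.67 and 10.74. Ciita, the coactivator that drives these genes, was at -0.05 and did not pass. In contrast 5 probe sets of the class I gene H2-D1, noticed after the values were seen and sharing sequence with other class I genes, rose by 1.19 to 2.71.

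T cell genes fell in part. Of 21 T cell surface and signalling genes, 5 were lower (23.8%) and 1 was higher (4.76%), against 3.73% and 3.52% over all genes. Cd7, an early T and NK cell antigen, read 10.06, 10.45 and 9.96 in EBFko and 3.87, 4.0 and 3.74 in Pax5ko (-6.29 ± 0.17, floored -4.16, adjusted p = 1.14e-05). Txk, a Tec family kinase, fell by 5.54 ± 0.72 (floored -4.09), and Cd27, a costimulatory receptor, by 5.01 ± 0.34 (floored -3.65). The rise was Prkcq, which encodes the theta isoform of protein kinase C, at 4.05 ± 0.44 (floored 0.71), a change that did not pass once floored. Of 19 transcription factors of T and innate lymphoid cells, 3 were lower (15.8%), Id2, Tox and Bcl11b, and 1 was higher (5.26%), Hes1. Id2, an inhibitor of E proteins required for innate lymphoid cells, read 11.76, 11.85 and 11.06 against 8.33, 7.50 and 8.35 (-3.49 ± 0.30, adjusted p = 0.00120), and its second probe set fell by 3.29 ± 0.26. Bcl11b and Tox, at -2.74 (floored -0.54) and -1.17, lost their calls in 5 and 7 of the 9 fits that left out 1 array. Gata3 and Tcf7 were low in both lines and did not pass, at -2.69 (floored -0.55) and -1.85 (floored -1.10).

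**Figure D3:**
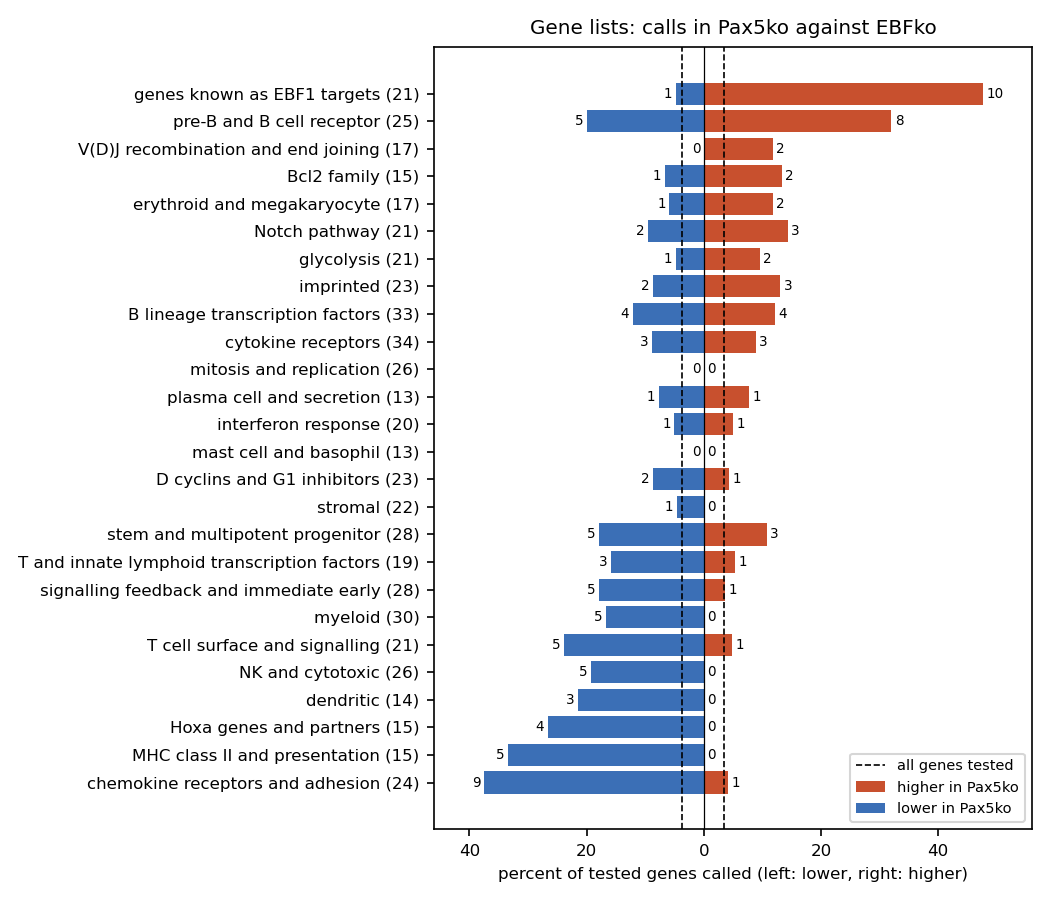
Percent of the tested genes of each list (number in parentheses) that were called higher (red, right) or lower (blue, left) in Pax5ko, with the number of called genes at each bar's end and dashed lines at the shares over all 9375 genes, 3.52% and 3.73%. EBF1 target genes have the highest share of rises and chemokine receptors and adhesion genes the highest share of falls.

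Adhesion molecules and homing receptors had the highest share of falls of any list, with 9 of 24 tested genes lower (37.5%) and 1 higher (4.17%). Over all genes 3.73% were lower and 3.52% higher. In the fits that left out 1 array, 5 to 10 of the list were lower. Cdh17, a cadherin, read 9.81, 9.72 and 10.59 in EBFko and 4.0, 1.24 and 2.95 in Pax5ko (-7.31 ± 0.82, floored -4.04, adjusted p = 0.00364). Itgb7, the integrin chain for homing to the gut, fell by 3.54 ± 0.27 from 9.87, 10.12 and 10.20. The integrin chains Itga4, Itga6 and Itgb2, Cd44, Selplg and Ccr6 were among the other falls, at -2.64 to -1.14. Cxcr3, a chemokine receptor, was the rise, from 6.77, 6.64 and 6.63 to 9.31, 9.28 and 9.07 (2.54 ± 0.32). Annotation terms in the deposited tables differed among themselves. Over all probe sets 2.58% were lower and 2.64% higher. Of 83 probe sets under cell-matrix adhesion, 11 were lower (13.3%) and 0 higher by limma, from 7 genes. The wider term cell adhesion had 26 lower and 6 higher of 542 (4.80% and 1.11%), and cell adhesion molecule activity 22 and 7 of 442 (4.98% and 1.58%). Heterophilic cell adhesion had 6 and 1 of 121 (4.96% and 0.826%) and homophilic cell adhesion 2 and 1 of 90 (2.22% and 1.11%). Chemotaxis had 5 and 4 of 98 (5.10% and 4.08%). Of 328 under G-protein coupled receptor activity, 24 were lower (7.32%) and 7 higher (2.13%). Among them Ptger4, a prostaglandin E2 receptor, read 10.83, 10.98 and 10.70 in EBFko and 7.75, 6.96 and 7.58 in Pax5ko (-3.41 ± 0.31), and Lpar1, a receptor for lysophosphatidic acid, fell by 3.58 ± 0.39 from 10.50, 10.59 and 10.57. These annotation terms and the genes named from them were picked after their values were seen.

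Signalling genes moved in both directions. Of 28 feedback and immediate early genes, 5 were lower (17.9%) and 1 higher (3.57%), against 3.73% and 3.52% over all genes. Dusp6, which switches off ERK, fell by 2.54 ± 0.46, and the kinase gene Pim2 by 2.22 ± 0.42. The brightest probe set of Pim1, a related kinase, fell by 3.0 ± 0.27, while another rose by 2.28 ± 0.19, so the gene has no single direction. The calls of Dusp6 and Pim2 were lost in 3 and 5 of the 9 fits that left out 1 array. Spred2, an inhibitor of ERK signalling, and Jund, an AP-1 factor, fell by 1.41 ± 0.20 and 0.68 ± 0.14. Nr4a1, an immediate early nuclear receptor, rose by 2.39 ± 0.36. Over all probe sets 2.64% were higher and 2.58% lower. Under the annotation term calcium ion transport, 12 of 94 probe sets were higher (12.8%) and 0 lower by limma, but 6 of the 12 belong to 1 gene. That gene is Camk2d, a calcium and calmodulin dependent kinase, whose 6 called probe sets rose by 1.42 to 2.28. The others included both probe sets of Prkcb, which encodes protein kinase C beta, a B cell kinase, at 3.13 ± 0.26 and 3.14 ± 0.33, and Trpc6, a cation channel, at 7.03 ± 1.09 (floored 3.46). Under phosphoprotein phosphatase activity, 15 of 136 probe sets were lower and 5 higher. Ptpn12, a tyrosine phosphatase, fell in 4 probe sets by 1.46 to 1.66, the brightest from 11.23, 11.27 and 11.24 to 9.71, 9.22 and 9.94. Of 21 Notch pathway genes, 3 were higher (14.3%: Nrarp, Notch1 and Hes1) and 2 lower (9.52%). The falls were Ptcra (-2.42 ± 0.31, floored -0.89), whose call was lost once floored, and Dtx3 (-1.32 ± 0.22), whose call was lost in 4 of the 9 fits that left out 1 array. Nrarp, a feedback inhibitor of Notch, read 6.86, 7.08 and 5.6 against 9.43, 9.36 and 9.10 (2.78 ± 0.51), and lost its call in 5 of the 9 fits that left out 1 array. Notch1, the receptor itself, rose by 1.23 ± 0.25 and lost its call in 7 of them.

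Calls among genes of growth and division differed by list. Over all genes 3.52% were higher and 3.73% lower. The shares were 4.35% and 8.70% for D cyclins and G1 regulators, and 9.52% and 4.76% for glycolysis genes. None of 26 genes of mitosis and DNA replication was called by limma, and their differences lay between -0.41 and 0.55, with 22 of 26 below 0 and a median of -0.17. The arrays did not overlap for 14 of the 26 genes that were lower and 1 that was higher, against 29.0% of all tested probe sets. At an unadjusted p under 0.05 there were 1 higher and 3 lower. Of 23 D cyclins and G1 regulators, 1 was higher (Ccne1, 0.67 ± 0.14) and 2 lower (Ccne2 and Cdkn2d, -1.14 ± 0.18 and -1.29 ± 0.27), and the calls of these 3 genes were lost in 3 to 8 of the 9 fits that left out 1 array. Under the annotation term for mRNA splicing, 1 of 138 probe sets was called, a fall (0.725%, against 2.58% lower over all probe sets). Of 21 glycolysis genes, 2 were higher and 1 was lower. Pfkp, a phosphofructokinase, fell by 1.79 ± 0.24, and the smaller rises of Hk1 (0.85 ± 0.17) and Pdk1 (0.80 ± 0.18) were lost in 7 and 8 of the 9 fits that left out 1 array. Pclaf, a clamp-associated factor that is outside these lists, read 11.68, 11.91 and 12.12 against 7.47, 6.83 and 7.14 (-4.76 ± 0.21, adjusted p = 7.40e-05).

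The remaining lists are small, so 1 or 2 calls make up a sizeable share. Over all genes 3.52% were higher and 3.73% lower. The shares were 13.3% and 6.67% for the Bcl2 family, and 5% and 5% for interferon response genes. They were 7.69% and 7.69% for plasma cell and secretion genes, and 11.8% and 5.88% for erythroid and megakaryocyte genes. Of 15 Bcl2 family genes 2 were higher and 1 lower, led by Bok, a pro-apoptotic member, which read 6.51, 6.55 and 5.98 in EBFko and 8.68, 8.51 and 8.84 in Pax5ko (2.33 ± 0.32). The calls of Bcl2l2 (0.86 ± 0.19) and Bad (-0.82 ± 0.15) were lost in 8 and 6 of the 9 fits that left out 1 array. Of 20 interferon response genes 1 was higher, Gbp3 (1.35 ± 0.16), and 1 lower, Mx1 (-2.96 ± 0.66, floored -0.97), which lost its call in 8 of those fits. Of 13 genes of plasma cells and secretion, Mzb1 was higher and Edem1, which helps clear misfolded proteins, was lower (-0.76 ± 0.13, lost in 5). Of 17 erythroid and megakaryocyte genes 2 were higher, Car2 and Tfrc (0.88 ± 0.17, lost in 7), and 1 was lower, Hbb-bh1. None of 13 mast cell and basophil genes was called by limma, and 0 had an unadjusted p under 0.05. The dendritic falls were Irf8, Cox6a2 (-3.92 ± 0.28), a cytochrome oxidase subunit, and Runx2 (-1.07 ± 0.18, lost in 5).

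Several of the largest rises were outside the B lineage lists. Igf2, an imprinted fetal growth factor, read 6.57, 4.42 and 4.12 in EBFko, 14.16, 14.62 and 14.26 in Pax5ko and 6.21 on average in RAG2ko (9.31 ± 0.67, floored 8.15, adjusted p = 5.85e-04), and its second probe set rose by 6.64 ± 0.88 (floored 3.51). Plagl1, an imprinted zinc finger factor, read 5.16, 1.86 and 4.05 against 11.77, 11.83 and 11.79 (8.10 ± 1.24, floored 5.79), and Grb10, an imprinted adaptor, rose by 4.13 ± 0.34 from 7.89, 7.10 and 6.69. Igf2r, the receptor that clears IGF2, fell by 2.60 ± 0.26 from 11.46, 11.76 and 12.37. Over 23 tested imprinted genes, 3 were higher and 2 lower, with a median difference of -0.23, with Ascl2 as the other fall, at signals under 64 on all 6 arrays and with its call lost in 5 of the 9 fits that left out 1 array. Plagl1 lost its call without Pax5ko replicate 1, at an adjusted p of 0.0510.

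A pair of neighbouring aldo-keto reductases on chromosome 13 rose together. Akr1c12 read 5.72, 4.09 and 6.65 in EBFko and 13.29, 12.88 and 13.28 in Pax5ko (7.66 ± 0.58, floored 6.93), and Akr1c13 read 4.82, 5.98 and 5.07 against 12.62, 12.48 and 12.53 (7.25 ± 0.29, floored 6.54). These genes are close copies of each other, so the readings may overlap. Mrc1, the mannose receptor of macrophages, read 6.04, 7.01 and 5.49 against 12.46, 12.71 and 12.48 (6.37 ± 0.37, floored 6.20), opposite to the falls among other myeloid genes. Ctse, an aspartic protease, rose by 5.96 ± 0.29 from 7.15, 7.38 and 7.04, and Gimap4, a GTPase of lymphocytes, by 5.71 ± 0.31 from 7.19, 7.73 and 7.78. Mzb1, a chaperone of secreting B cells, rose by 4.71 ± 0.43 to 14.26, 14.25 and 14.28. Dmd, which encodes dystrophin, rose by 5.42 ± 0.33 (floored 4.84) and 5.73 ± 0.62 (floored 5.23) in its 2 called probe sets, and Car2, a carbonic anhydrase, by 5.01 ± 0.39. Parp1, a sensor of DNA breaks named after its values were seen, rose in 3 probe sets by 1.56 to 1.75 at levels above 11 in both lines.

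**Figure D4:**
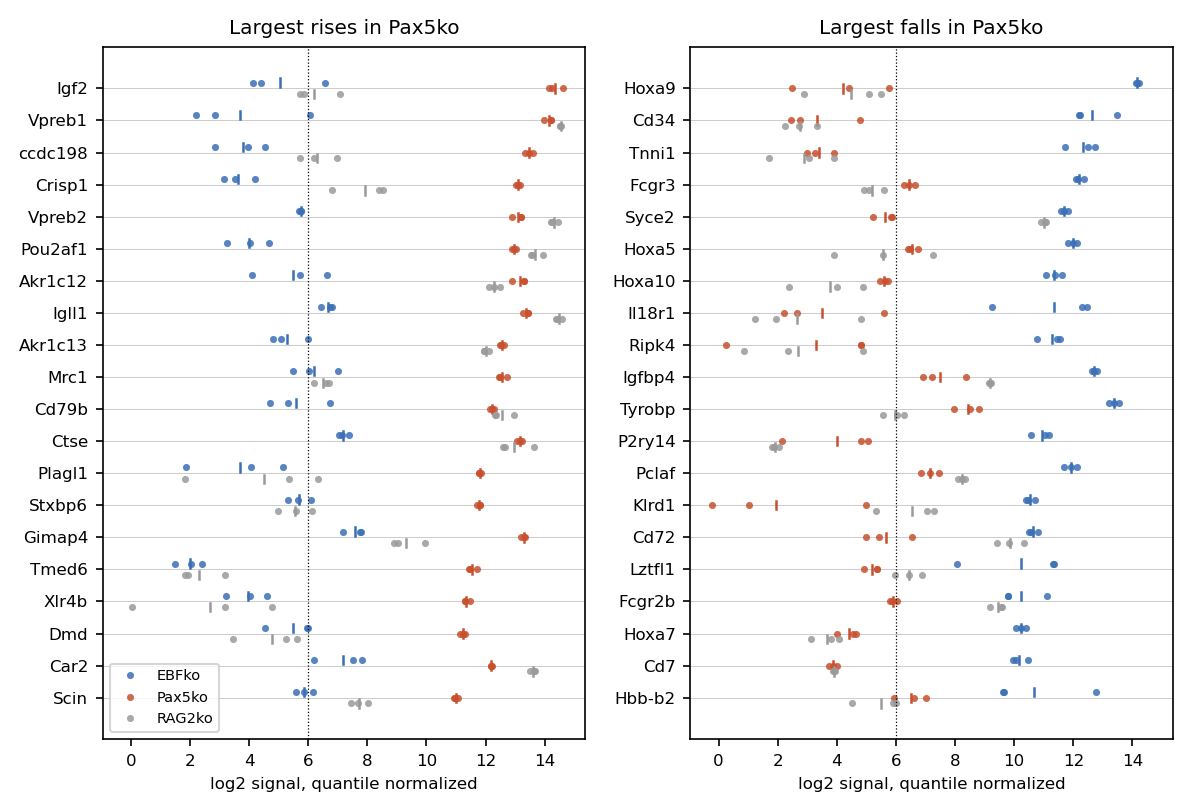
Log2 signal (x axis) on each EBFko, Pax5ko and RAG2ko array for the 20 genes with the largest floored rises and the 20 with the largest floored falls (y axis), with a tick at each group's mean and a dotted line at 6. The 3 Pax5ko arrays lie close together for the rises, and RAG2ko lies with Pax5ko for some genes, such as Vpreb1 and Cd34, and with EBFko for others, such as Igf2 and Syce2.

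Further large falls lay outside the groups above. Tnni1, a troponin of slow muscle, read 12.49, 12.73 and 11.71 in EBFko and 3.28, 3.92 and 3.0 in Pax5ko (-8.91 ± 0.57, floored -6.31). Igfbp4, a binding protein for insulin-like growth factors, fell by 4.88 ± 0.25 in its brightest probe set, from 13.10, 13.20 and 13.15, and by 5.21 ± 0.35 in another. P2ry14, a receptor for UDP-glucose, read 11.03, 11.19 and 10.58 against 2.14, 4.81 and 5.04 (-6.94 ± 0.71, floored -4.93). Syce2, a protein of the meiotic synaptonemal complex, read 11.59, 11.81 and 11.69 against 5.21, 5.83 and 5.88 (-6.06 ± 0.21, floored -5.70, adjusted p = 3.39e-05). The beta globins Hbb-b2 and Hbb-bh1, the latter on the erythroid list, whose descriptions name embryonic chains, fell by 4.15 ± 0.88 and 4.03 ± 0.81 (floored -4.13 and -1.81), and each lost its call in 7 of the 9 fits that left out 1 array. Hbb-b2 read 12.75 on EBFko replicate 3, the array with high Mpo, against 9.65 and 9.62 on the others, and the part of other cells in it was not tested.

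Some probe sets carry no accession match of their own and are named by their description. Rises among them were chloride intracellular channel 6 (1454866_s_at), at 2.14, 4.65 and 5.54 in EBFko and 11.32, 11.54 and 11.27 in Pax5ko (7.27 ± 0.89, floored 5.38), hook homolog 1 (6.92 ± 0.71, floored 5.06) and phosphodiesterase 2A (4.71 ± 0.28, floored 4.17). Hook proteins link cargo to microtubules, and phosphodiesterase 2A breaks down cyclic nucleotides. Falls were regulator of G-protein signaling 18 (1420398_at), at 12.36, 12.23 and 12.96 against 6.82, 6.58 and 6.62 (-5.85 ± 0.21, adjusted p = 3.44e-05), the alpha 3 subunit of soluble guanylate cyclase (-6.31 ± 0.72, floored -3.85), the forkhead factor F1a (-3.98 ± 0.59, floored -3.88) and intersectin (-4.21 ± 0.65, floored -3.65, lost in 2 of the 9 fits that left out 1 array). Over all probe sets 2.64% were higher and 2.58% lower. Among the classes of description, transcribed loci or sequences had 70 rises and 32 falls in 4459 probe sets (1.57% and 0.718%). Expressed sequences had 23 and 7 in 574 (4.01% and 1.22%). RIKEN cDNA clones, at 187 and 165 in 7349 (2.54% and 2.25%), were close to the shares over all probe sets. Protein tyrosine phosphatases had 4 rises and 12 falls in 85 (4.71% and 14.1%), and homeobox genes 3 and 7 in 164 (1.83% and 4.27%). Zinc finger genes had 14 and 21 in 522 (2.68% and 4.02%) and solute carriers 12 and 11 in 404 (2.97% and 2.72%). G protein-coupled receptors had 5 and 7 in 88 (5.68% and 7.95%).

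**Figure D5:**
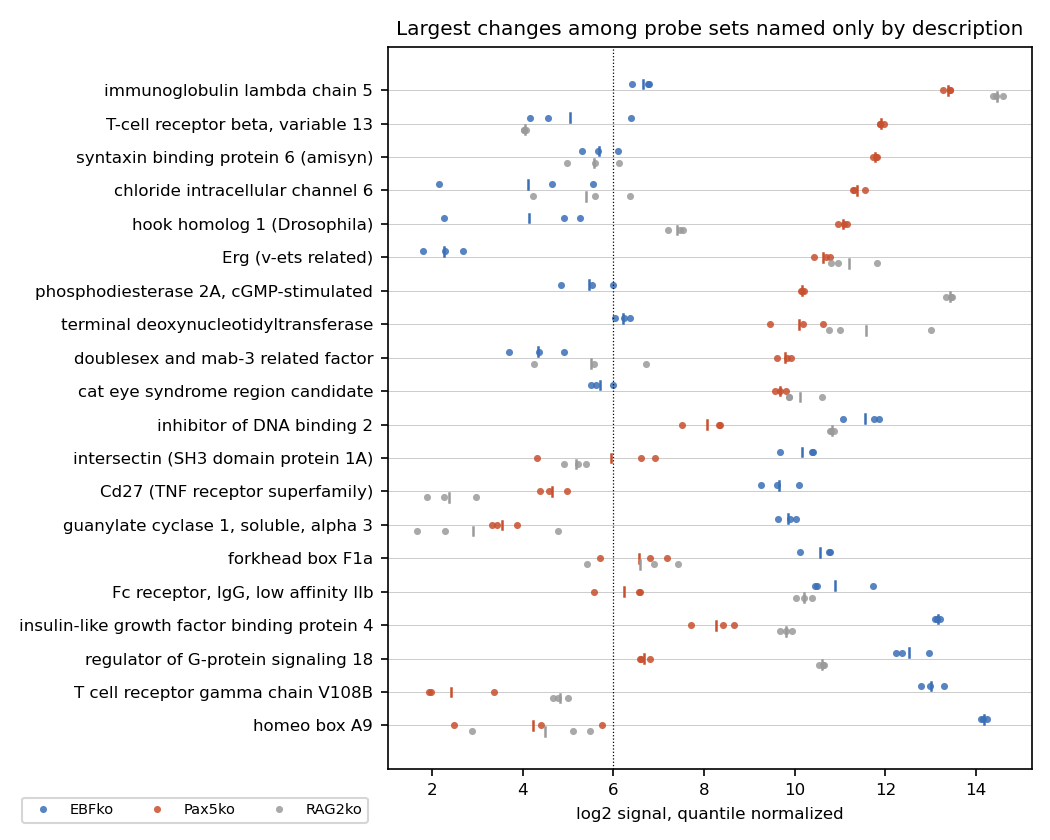
Log2 signal (x axis) on each array for the 10 largest floored rises and 10 largest floored falls among probe sets named by their description and not by an accession (y axis), with a tick at each group's mean and a dotted line at 6. Only called probe sets whose EBFko and Pax5ko arrays do not overlap could be chosen. They run from immunoglobulin lambda chain 5 at the top to homeo box A9 at the bottom.

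Where at least 2 probe sets of a gene were called, they mostly went the same way. Directions of probe sets that were not called were not compared. Of 4223 genes with several tested probe sets, 191 had at least 2 called and all in 1 direction, and 1 gene, Pim1, had calls in both. One Pim1 probe set (1435872_at) read 13.18, 13.25 and 13.21 in EBFko and 10.42, 10.15 and 10.05 in Pax5ko (-3.0 ± 0.27, adjusted p = 0.00146). The other (1423006_at) read 9.84, 9.51 and 9.66 against 11.87, 12.16 and 11.84 (2.28 ± 0.19, adjusted p = 9.53e-04). Both changes exceed the spread between arrays, so no single direction can be given for Pim1 transcripts, and where each probe set lies on the gene is not given in the sources used here.

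By chromosome, chromosome 14 had 23 genes higher and 3 lower of 337 tested (6.82% and 0.890%) and chromosome 4 had 20 higher and 38 lower of 541 (3.70% and 7.02%), against 3.52% and 3.73% over all genes. On chromosome X 8 were higher and 8 lower of 326. These chromosomes were picked after their values were seen, and neighbouring genes are not independent.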

How the data were processed

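Cultured mouse cells of 3 knockout lines were measured on 3 Affymetrix arrays each. In the authors' deposited value table each array has an intensity for every probe set, on a linear scale, with a mean of 500 once 2% is trimmed at each end. The submitters' processing notes name GCRMA, whose usual output is on a log2 scale, so how these intensities were made is not given in the sources used here. The deposited tables of each line hold 1 ratio per probe set with no replicates and no stated reference, and were used as an alternative and for the descriptions and annotation terms.

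Intensities were log2 transformed and quantile normalized over 9 arrays. The 64 control probe sets and those not above a log2 of 4 on at least 3 arrays were left out, which kept 40928. The contrast was fitted in R 4.3.3 with limma 3.58.1, using lmFit and eBayes on the 9 arrays, and two-sided p-values were adjusted by Benjamini-Hochberg over the 40928. The fit was tested on simulated data. Symbols came from RefSeq accessions (13127 probe sets), the same description as one of those (4944) or full names matched by hand (192). Gene lists used the probe set of highest mean per gene.

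Named genes are a fixed set of B lineage and lymphoid genes, the 20 largest floored rises and falls, the 10 largest of each named by description only, and up to 3 of each per list. The comparison and the gene lists were chosen with earlier results of these data known. Alternatives changed the normalization, filter, floor, arrays, probe sets and variance model, and left out each array in turn. No array was a copy of another. Some genes that count in the lists are not reported here by name.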

Additional observations from a re-analysis of the deposited data

How the results depend on the processing

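Against 1080 rises and 1055 falls in Pax5ko, raising signals under 64 to 64 gave 1800 and 1850 calls, eBayes with trend and robust settings 1895 and 1922, array weights 1693 and 1704, and a filter at a log2 of 6 1614 and 1650. Taking 1 probe set per named gene gave 482 and 534 because fewer were tested. Leaving out 1 array gave 485 to 1247 rises and 453 to 1230 falls, with the lowest counts without Pax5ko replicate 1 (485 rises) and without EBFko replicate 2 (453 falls), and the highest without RAG2ko replicate 3. The replicate number as a block gave 632 and 590. Same-numbered arrays of both lines had correlations of deviations of -0.005, 0.114 and 0.079, against -0.111 to 0.038 for arrays of different numbers. Replicates 2 and 3 thus deviated slightly more alike across the lines than differently numbered arrays, and replicate 1 did not. Whether arrays of the same number were handled together is not given, and the main fit did not pair them. The remaining alternatives stayed within 1.5 times of these counts. The median difference over probe sets moved from -0.01 to -0.08 without quantile normalization and to 0.07 with centring on the median. Of 2135 calls, 1456 were also called in the same direction from the 6 arrays alone and 1155 with the block.

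Of 131 named probe sets called, 86 kept their call without any 1 of the 9 arrays. The deposited ratios gave all of them the same direction. In size, 65 of the 149 named probe sets differed from the fit by at least the larger SD of the EBFko and Pax5ko arrays. For Vpreb1 the ratios gave 6.56 against 10.43. Directions that reversed all belong to genes that were not called: Tcf3 moved to 0.15 with centring on the median and ranged from -0.138 to 0.090 when 1 array was left out, above 0 without EBFko replicate 2 (0.074), Pax5ko replicate 1 (0.029) or Pax5ko replicate 3 (0.090). Irf4 moved to -0.014 without quantile normalization and ranged from -0.038 to 0.319 when 1 array was left out, below 0 without EBFko replicate 1 (-0.0028) or Pax5ko replicate 1 (-0.038), and Myb to 0.12 with centring. Prkcq, Ptcra, Pdgfrb, Clec4d and Ascl2 lost their calls with signals under 64 raised to 64. Signal near background limits the size of every change that reaches under 64, and the cause of the other differences was not tested.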
